A study of Mus musculus with 25 samples.

Results

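The proteasome is the protease that degrades ubiquitin-tagged proteins, and its subunit genes were followed here in ribosome-bound mRNA of spinal cord cholinergic neurons with and without the clock activator BMAL1. The genes were taken by name, as all *Psma*, *Psmb*, *Psmc*, *Psmd*, *Psme*, *Psmf* and *Psmg* symbols followed by a number, with at least 10 counts summed over the 24 immunoprecipitates. Of 50559 genes listed, 57 names matched, 6 of these end in -ps and were left out as pseudogenes, and the remaining 51 all passed the limit. The lowest sums inside it were 22 counts for *Psma8* and 35 for *Psmb11*, and the highest was 172829 for *Psmd2*. *Psmc3ip*, a cofactor of meiotic recombination, and *Psme3ip1*, a partner of the activator *Psme3*, were matched by name only and encode no subunit.

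The 24 immunoprecipitation (IP) libraries hold RNA pulled down with hemagglutinin-tagged ribosomes from 6-mo-old male C57BL/6J mice, 1 spinal cord per homogenate. *ChAT-BKO* mice carried *ChAT-Cre*, *RiboTag* fx/+ and *Bmal1* fx/fx, and controls carried *ChAT-Cre* and *RiboTag* fx/+ but no floxed *Bmal1* allele, so Cre and the tag were common to both. Cre from *Chat* acts in cholinergic neurons of every kind, not in motor neurons alone, and the ribosome tag marks the same cells. Spinal cords were taken at zeitgeber time (ZT) 8, in the light, or ZT20, in the dark, with 6 mice in each of the 4 groups, and 1 library of pooled input RNA from whole spinal cord was sequenced beside them. The libraries held 4.04 M to 31.7 M counts and the input 7.40 M. *Bmal1* (listed as *Arntl*) was at 6.27 to 11.0 CPM (counts per 1 M of the library total after TMM scaling) in the 12 control libraries and 1.36 to 3.33 CPM in the 12 *ChAT-BKO* libraries, with no overlap. The 5 cholinergic markers, *Chat* among them, summed to 3222 to 3902 CPM in the IP libraries against 243 CPM in the input, but the IP was not free of other cells, since 5 oligodendrocyte markers still summed to 1592 to 2398 CPM, against 16474 CPM in the input.

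The proteasome core, the 20S particle, is a barrel of alpha rings, which gate the entry of substrates, and beta rings, which hold the proteolytic sites. The 19S cap recognises ubiquitin, unfolds the substrate with a ring of ATPases and feeds it into the barrel. Interferon and immune cells bring in another set of catalytic subunits, *Psmb8*, *Psmb9* and *Psmb10*, which take the places of *Psmb5*, *Psmb6* and *Psmb7* and form the immunoproteasome, whose peptides suit antigen presentation. Clearance of damaged and aggregated proteins by this system is a long-standing interest in motor neuron disease.

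By role, 7 genes encode alpha-ring subunits (*Psma1* to *Psma7*), 4 the structural beta-ring subunits (*Psmb1* to *Psmb4*), 3 the constitutive catalytic subunits, 6 the 19S ATPases (*Psmc1* to *Psmc6*) and 11 the other 19S subunits (*Psmd1* to *Psmd4*, *Psmd6* to *Psmd8* and *Psmd11* to *Psmd14*). These 31 genes are called the constitutive proteasome below. The others are the 3 immunoproteasome subunits, the testis alpha subunit *Psma8*, the thymus subunit *Psmb11*, 3 chaperones of 19S assembly (*Psmd5*, *Psmd9* and *Psmd10*), 4 chaperones of 20S assembly (*Psmg1* to *Psmg4*), 5 activator genes (*Psme1*, *Psme2*, *Psme2b*, *Psme3* and *Psme4*), the inhibitor *Psmf1* and the pair matched by name only.

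The genes are scattered over 16 chromosomes, with 10 on chromosome 11 and 6 each on chromosomes 2 and 14 (GRCm38). *Psmb9* (chr17:34181987-34187764, minus strand) and *Psmb8* (chr17:34197721-34201454, plus strand) lie 9.96 kb apart, and the activators *Psme1* (chr14:55578123-55581529, plus strand) and *Psme2* (chr14:55587441-55591113, minus strand) 5.91 kb apart. *Psma1* (chr7:114264606-114276118, minus strand) is 0.950 Mb from *Bmal1*, the gene that was floxed, and its levels are given with the genotype comparison.

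Upstream sequence is shown for the constitutive and immunoproteasome catalytic genes, because the results below turn on the contrast between these sets. It is the 250 bases before the RefSeq start of the 5 of these 6 genes that had an entry (GRCm38.p6, 5′ to 3′ on the gene's own strand). The RefSeq start lies 474 and 434 bases downstream of the outermost start in the gene positions above for *Psmb8* and *Psmb9*, so both windows lie wholly inside those positions and not before them. For *Psmb10* and *Psmb5* it lies 52 and 27 bases downstream. Capitals mark every match to one of 5 patterns searched on both strands: CACGTG, the canonical E-box to which BMAL1 and CLOCK bind, TGACNNNGC, the core of the antioxidant response element used by the proteasome regulator NFE2L1, CCAAT, the NF-Y box, GAAA followed by 2 free bases and another GAAA, a form of the interferon-stimulated response element (ISRE), and TTCNNNGAA, the interferon-gamma-activated site. *Psmb5* is at chr14:54617996-54618245 (minus strand), *Psmb6* at chr11:70525107-70525356 (plus), *Psmb8* at chr17:34197945-34198194 (plus), *Psmb9* at chr17:34187331-34187580 (minus) and *Psmb10* at chr8:105938393-105938642 (minus).
Psmb5: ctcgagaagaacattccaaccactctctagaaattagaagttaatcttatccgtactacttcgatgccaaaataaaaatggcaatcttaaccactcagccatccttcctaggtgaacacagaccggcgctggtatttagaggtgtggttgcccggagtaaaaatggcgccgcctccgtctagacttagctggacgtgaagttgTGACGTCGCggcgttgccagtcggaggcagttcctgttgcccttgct
Psmb6: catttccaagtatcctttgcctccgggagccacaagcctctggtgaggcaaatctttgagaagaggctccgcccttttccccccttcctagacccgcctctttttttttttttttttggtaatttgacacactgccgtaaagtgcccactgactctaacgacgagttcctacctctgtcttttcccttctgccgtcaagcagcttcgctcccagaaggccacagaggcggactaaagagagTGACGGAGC
Psmb8: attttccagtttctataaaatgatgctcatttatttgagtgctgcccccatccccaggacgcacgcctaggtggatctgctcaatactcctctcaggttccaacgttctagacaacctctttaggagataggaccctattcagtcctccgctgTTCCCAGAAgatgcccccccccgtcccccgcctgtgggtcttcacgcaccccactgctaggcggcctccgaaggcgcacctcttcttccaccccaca
Psmb9: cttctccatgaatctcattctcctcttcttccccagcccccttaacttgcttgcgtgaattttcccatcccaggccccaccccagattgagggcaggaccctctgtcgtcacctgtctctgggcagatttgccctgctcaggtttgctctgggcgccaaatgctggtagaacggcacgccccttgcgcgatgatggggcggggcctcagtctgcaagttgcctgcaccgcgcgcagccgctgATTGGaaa
Psmb10: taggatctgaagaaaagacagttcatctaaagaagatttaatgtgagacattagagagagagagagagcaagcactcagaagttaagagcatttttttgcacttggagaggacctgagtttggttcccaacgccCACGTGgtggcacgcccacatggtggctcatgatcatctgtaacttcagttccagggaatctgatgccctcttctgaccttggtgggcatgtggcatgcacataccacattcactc

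*Psmb5* and *Psmb6* each held 1 match to TGACNNNGC, beginning 47 and 9 bases before the start. In the immunoproteasome windows, which for *Psmb8* and *Psmb9* do not reach the outermost start, *Psmb8* had 1 TTCNNNGAA, *Psmb9* 1 CCAAT and *Psmb10* 1 E-box. A window was found for 43 of the 51 genes, with the first listed start taken where a gene had several. *Psma8*, *Psmb1*, *Psmb2*, *Psmb7*, *Psmc3*, *Psmd3*, *Psmd7* and *Psmg2* had none. An E-box was in 4 of the 43 windows (9.30%), those of *Psma4*, *Psmb10*, *Psmd9* and *Psme3*, against 6.02% of all 32817 promoters of the same length. TGACNNNGC was in 5 (11.6%, against 10.2% of all promoters), CCAAT in 15 (34.9% against 33.8%), the ISRE form in 3 (6.98% against 2.97%) and TTCNNNGAA in 2 (4.65% against 7.01%). No pattern overlapped another in the windows shown, and a match is a run of letters, not a measured binding site.

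The constitutive catalytic subunits were among the most abundant members in cholinergic neuron ribosomes, and the immunoproteasome subunits *Psmb8* and *Psmb9* among the least. To compare genes with each other, levels were divided by transcript length and are given as CPM per kb, as mean ± SD over the 24 IP libraries. *Psmb6*, which carries the caspase-like site, stood highest at 489 ± 62.3, followed by the ATPase *Psmc5* at 420 ± 60.1 and by *Psmb5*, which carries the chymotrypsin-like site, at 372 ± 62.8. The SDs of neighbours in this order overlap. With lengths over all basic transcripts *Psmb5* was at 440 and *Psmc5* at 420 CPM per kb, so their order was the reverse. *Psmb7*, which carries the trypsin-like site, was at 295 ± 22.4. Of the immunoproteasome genes, *Psmb10* reached 29.5 ± 5.55, *Psmb8* 1.09 ± 0.332 and *Psmb9* 0.406 ± 0.202 CPM per kb. At the bottom of the list were *Psmb9*, *Psma8* (0.0428 ± 0.0580) and *Psmb11* (0.0289 ± 0.0383), the last 2 at 0 counts in 12 and 10 of the 24 libraries.

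Within the constitutive proteasome the levels were unequal, although each subunit takes a fixed place in the particle. The 31 genes spanned 29.5 CPM per kb for *Psmd11* to 489 for *Psmb6*, a 16.6-fold range, with a median of 141. The 3 catalytic genes lay within a 1.65-fold range, the structural beta genes between 158 (*Psmb2*) and 354 (*Psmb4*), and the alpha-ring genes between 49.1 (*Psma3*) and 190 (*Psma7*). The ATPases ran from 61.2 (*Psmc6*) to 420 (*Psmc5*) and the other 19S subunits from 29.5 (*Psmd11*) to 259 (*Psmd4*). Assembly chaperones stood at 10.2 to 18.5 CPM per kb for those of the 19S and 11.5 to 50.1 for those of the 20S, where *Psmg3* was highest. It lay above *Psmd11*, and above *Psma3* only with the principal transcript lengths used here. With lengths over all basic transcripts *Psma3* was at 75.4 CPM per kb and *Psmg3* at 50.1. The activators lay between 1.13 for *Psme2b* and 34.2 for *Psme3*, and the inhibitor *Psmf1* was at 27.3. *Psme2b* is a copy of *Psme2* elsewhere in the genome, so the division of reads between this pair is uncertain, as it is between members and their 6 -ps copies. In the basic GENCODE annotation, 15 of the 51 members share exon bases with another gene, 11 of them on the opposite strand, so reads there may be divided wrongly if counting was unstranded. These include *Psmb9* (212 bases with *Tap1*), *Psmb7* (405 with *Nek6*), *Psmb8* (186), *Psme1* (7) and, on the same strand, *Psmd1* (301) and *Psmg3* (237), but not *Psmd5*, *Psmd9*, *Psme2* or *Psmf1*.

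**Figure D1:**
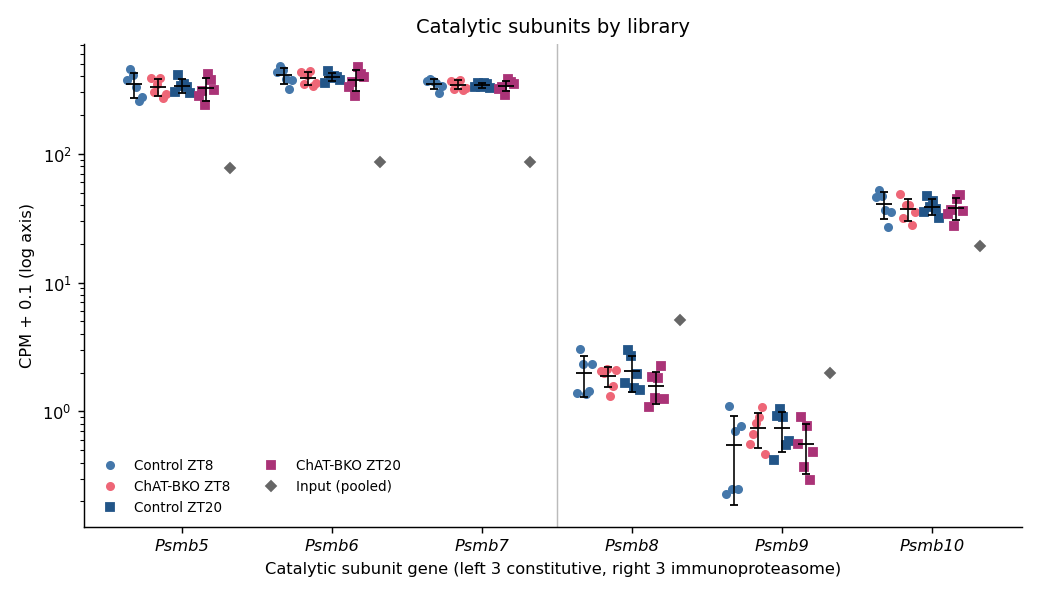
CPM (plus 0.1, log axis) of the 6 catalytic subunit genes in each of the 24 IP libraries and the pooled input, with the mean and SD of each group of 6 in black. *Psmb5*, *Psmb6* and *Psmb7* lie between 240 and 480 CPM in every IP library, above the input, while *Psmb8* and *Psmb9* lie below the input in every IP library.

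Library by library, the catalytic genes separated into the same layers in all groups. On the CPM scale, *Psmb5* ran from 256 to 451 in Control ZT8 (median 352), 273 to 387 in *ChAT-BKO* ZT8 (median 325), 298 to 411 in Control ZT20 (median 331) and 240 to 416 in *ChAT-BKO* ZT20 (median 309). *Psmb6* ran from 318 to 480 (median 407), 338 to 437 (382), 357 to 441 (390) and 281 to 472 CPM (378) in the same order of groups. *Psmb7* ran from 294 to 382 (median 361), 315 to 377 (344), 322 to 354 (338) and 288 to 379 CPM (339). The 4 groups overlap for each of these 3 genes.

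*Psmb8* ran from 1.26 to 2.93 CPM in Control ZT8 (median 1.77), 1.23 to 2.03 in *ChAT-BKO* ZT8 (1.93), 1.37 to 2.88 in Control ZT20 (1.70) and 0.974 to 2.13 in *ChAT-BKO* ZT20 (1.45), on 82 to 177 counts per group. *Psmb9* ran from 0.130 to 0.997 (median 0.377), 0.363 to 0.990 (0.639), 0.322 to 0.952 (0.640) and 0.194 to 0.801 CPM (0.421), on 27 to 54 counts per group. *Psmb10* ran from 26.8 to 52.6 (median 41.4), 27.7 to 48.9 (37.6), 31.3 to 47.3 (38.0) and 27.5 to 48.1 CPM (36.1). The groups overlap here too, and at these counts only large changes of *Psmb8* and *Psmb9* were detectable.

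The immunoproteasome share of the catalytic subunits was low in the IP, with overlapping ranges in the 4 groups. The 3 immunoproteasome genes made up 2.59 ± 0.210% of the summed CPM per kb of the 6 catalytic genes (SD, 24 libraries), with a range of 2.23 to 2.96%, against 6.62% in the input. Group means were 2.62% in Control ZT8, 2.53% in *ChAT-BKO* ZT8, 2.61% in Control ZT20 and 2.61% in *ChAT-BKO* ZT20. Nearly all of it was *Psmb10*. *Psmb10* made up 9.00 ± 1.04% of the *Psmb10* and *Psmb7* pair (input 16.2%), *Psmb8* 0.291 ± 0.0739% of the *Psmb8* and *Psmb5* pair (input 3.46%) and *Psmb9* 0.0831 ± 0.0403% of the *Psmb9* and *Psmb6* pair (input 1.296%). Without division by length the immunoproteasome share was 3.67%.

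Against whole spinal cord, the constitutive proteasome was enriched on cholinergic neuron ribosomes and *Psmb8* and *Psmb9* were depleted. The ratio used here is log2 of CPM + 1 in an IP library over CPM + 1 in the pooled input, averaged over the 24 IP libraries. The input is a single library with no replicate error, so no test was made, and in such bulk samples fewer cells of a type and less RNA per cell cannot be told apart. The input is RNA of whole spinal cord and the IP ribosome-bound RNA, so the ratio compares RNA fractions as well as cells. All 31 constitutive genes had a ratio above 0, with a median of 1.65, and 30 of them exceeded 1. Over all 51 members the median was 1.34 and 46 were above 0, beside 48.8% of all genes tested and 5860 of the 8852 genes at 10 CPM or more. A ratio above 1 was found for 35 (68.6%), beside 11% of all genes tested and 23.8% of those 8852. Among the 46 is *Psmb11*, which had 0 counts in the input, so its ratio could not fall below 0. As a percent of 1 M, the members' summed CPM after TMM scaling was 0.796 to 0.845 as group means and 0.269 in the input. These are not shares of the raw counts, since TMM rescales the library totals.

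By role, the beta ring stood highest. The constitutive catalytic genes had ratios of 2.17 ± 0.188 (*Psmb6*), 2.08 ± 0.242 (*Psmb5*) and 1.97 ± 0.111 (*Psmb7*), as mean ± SD over 24 libraries, and the 4 structural beta genes 1.86 to 2.11. The alpha-ring genes lay between 1.40 and 1.81, the ATPases between 1.18 and 2.00, and the other 19S genes between 0.67 for *Psmd11* and 2.24 for *Psmd13*. The largest ratio of all members was that of *Psmg3*, a chaperone of 20S assembly, at 2.54 ± 0.265, from 25.5 to 54.5 CPM in the IP libraries against 6.00 CPM (60 counts) in the input.

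The lowest ratios were those of *Psmb8* (-1.14 ± 0.274), *Psmb9* (-0.93 ± 0.260) and *Psme1* (-0.20 ± 0.211). Mean IP levels were 1.77 CPM for *Psmb8* and 0.549 CPM for *Psmb9*. At such levels the added 1 CPM pulls the ratio toward 0, most for *Psmb9*, so the size and order of both ratios depend on it. *Psmb8* and *Psmb9* were below the input in 24 of 24 IP libraries, where the input held 5.00 CPM of *Psmb8* (50 counts, 95% exact Poisson interval 3.71 to 6.596 CPM) and 1.90 CPM of *Psmb9* (19 counts, 1.14 to 2.97 CPM). These intervals cover counting error only. *Psmb10*, in contrast, was above the input in all 24 libraries, at 0.96 ± 0.268. *Psme2*, which pairs with *Psme1* in the PA28 activator, was at 0.97 ± 0.216 and so above the input, while *Psme1* was above it in 4 of 24 libraries. Microglial markers had a median ratio of -3.22 (0 of 6 above 0, summed level 9.78 to 16.4 CPM in the IP libraries and 166 CPM in the input), and endothelial markers -2.72 (0 of 5 above 0). The part of these cells in the *Psmb8* and *Psmb9* counts was not tested.

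**Figure D2:**
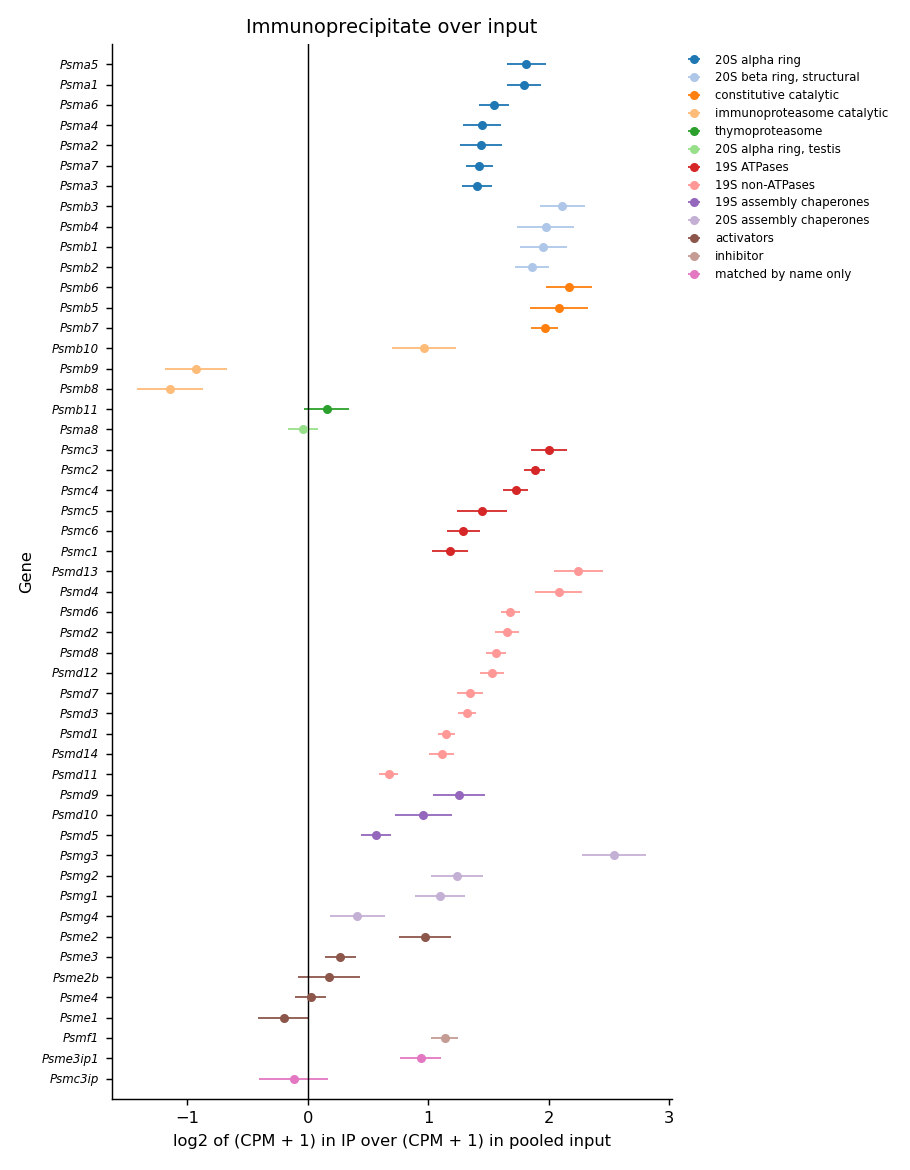
Log2 ratio of CPM + 1 in the IP libraries over CPM + 1 in the pooled input for the 51 genes, coloured by role, as mean and SD over 24 libraries. The constitutive subunits lie between 0.67 and 2.24, and *Psmb9* and *Psmb8* lie at -0.93 and -1.14.

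Both gene length and library scaling bear on this ratio. The input favoured long genes more than the IP did: log2 CPM rose by 1.13 per doubling of gene length in the input and by 0.815 to 1.00 in the IP libraries, and members are short, with a median of 1440 bases against 2558 for the genes tested. With each library's ratio taken as its residual from a straight line on log2 length, the median over all 51 members was 1.37, with 45 of 51 above 0, and the median over the 31 constitutive genes 1.63, with 31 of 31 above 0. On library totals without TMM scaling the members' median was 0.90, beside -0.25 for all genes tested. From the scaled ratio the members' median shifted by -0.45 and that of all genes tested by -0.22.

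At ZT8, no proteasome gene differed detectably with loss of *Bmal1*. The comparison asks whether the cholinergic clock sets proteasome mRNA in the rest phase. Of the 51 members, 0 were called at an adjusted p of 0.05 in edgeR's quasi-likelihood test, beside 0.184% of all 21738 genes tested. DESeq2 also called 0 members (0.322% of all genes), and 0 members had an unadjusted p below 0.05 (4.83% of all genes). The groups were free of overlap for 0 members (0.58% of all genes). The log2 fold changes of *ChAT-BKO* over control had a median of -0.02, with 30 of 51 below 0, where 50% of all genes were below 0. The 95% interval of every member covered 0. For the 31 constitutive genes all intervals lay within folds of 0.796 to 1.16, and for the 44 members at 10 CPM or more within 0.752 to 1.26.

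The 3 members of smallest p at ZT8 were *Psmd5*, *Psmb11* and *Psme4*. *Psmd5*, a chaperone of the 19S base, ran from 37.0 to 44.1 CPM in controls (median 41.9) and 42.4 to 52.2 in *ChAT-BKO* (median 43.6). All 6 *ChAT-BKO* libraries lay above the control median, but the groups overlap, and the log2 difference was 0.12 ± 0.068 (SE; edgeR adjusted p = 1). *Psmb11* had 6 counts in controls and 14 in *ChAT-BKO*, too few to compare. *Psme4*, the PA200 activator, ran from 31.5 to 39.1 CPM in controls and 30.3 to 35.8 in *ChAT-BKO* (-0.08 ± 0.071, adjusted p = 1).

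None of the catalytic subunits passed the test at ZT8, constitutive or immunoproteasome. The log2 differences were -0.07 ± 0.123 for *Psmb5* and -0.10 ± 0.241 for its counterpart *Psmb8*, -0.06 ± 0.090 for *Psmb6* and 0.21 ± 0.433 for *Psmb9*, and -0.02 ± 0.067 for *Psmb7* and -0.11 ± 0.141 for *Psmb10* (SE, adjusted p = 1 for each). *Psme1* (0.09 ± 0.118) and *Psme2* (0.01 ± 0.090) lay as close to 0. For *Psmb9* the 95% interval ran from -0.69 to 1.12, so changes of its low level within those bounds are compatible with these data.

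At ZT20, most members leaned lower in *ChAT-BKO* neurons, but none passed the test. Again 0 of 51 members were called by edgeR (0.23% of all genes) and 0 by DESeq2 (0.419%). An unadjusted p below 0.05 was found for 3 members, all lower (6.28% of all genes, in either direction), and the groups were free of overlap for 0 members (0.497%). Log2 fold changes were below 0 for 44 of 51 members, with a median of -0.07, where 51.6% of all genes lay below 0. All 7 alpha-ring genes, all 4 structural beta genes, all 3 constitutive catalytic genes, all 6 ATPases and all 4 chaperones of 20S assembly were below 0, with class medians between -0.10 and -0.07. Other classes were mixed: 3 of the 11 other 19S subunits (median -0.05) and 1 of the 3 chaperones of 19S assembly were above 0. The members do not vary independently over libraries, as described below, so the count of 44 is not that of 51 separate observations. For the 31 constitutive genes all 95% intervals lay within folds of 0.809 to 1.11.

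The 3 members of smallest p at ZT20 were the PA28 activator genes and a 19S chaperone. *Psme2* ran from 24.99 to 37.9 CPM in controls (median 30.3) and 19.7 to 31.96 in *ChAT-BKO* (median 24.0). *Psme1* ran from 12.5 to 15.7 (median 13.8) and 9.20 to 14.3 CPM (median 11.5). *Psmd9* ran from 43.8 to 58.0 (median 50.0) and 36.5 to 50.2 CPM (median 44.5). For each, 1 of 6 *ChAT-BKO* libraries lay above the control median and the groups overlap. The log2 differences were -0.30 ± 0.116 for *Psme2* (adjusted p = 0.679), -0.26 ± 0.103 for *Psme1* (0.699) and -0.21 ± 0.087 for *Psmd9* (0.733).

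The catalytic pairs at ZT20 stood at -0.07 ± 0.104 for *Psmb5* and -0.46 ± 0.256 for *Psmb8*, -0.07 ± 0.091 for *Psmb6* and -0.43 ± 0.391 for *Psmb9*, and -0.01 ± 0.058 for *Psmb7* and -0.06 ± 0.116 for *Psmb10* (SE, edgeR adjusted p from 0.828 to 0.988). The 95% interval of *Psmb8* ran from -0.999 to 0.07. *Psma1*, taken for its place beside *Bmal1*, had means of 128 ± 14.0 and 126 ± 11.7 CPM in control and *ChAT-BKO* at ZT8 and 130 ± 9.09 and 122 ± 15.7 CPM at ZT20 (SD, n = 6, adjusted p = 1 and 0.875). Skeletal muscle markers moved in the same comparison, with 3 of 5 called higher in *ChAT-BKO* at ZT20, at summed levels of 5.20 to 20.6 CPM in controls and 3.33 to 73.6 in *ChAT-BKO*, and their part in the proteasome values was not tested. The markers of microglia, astrocytes, oligodendrocytes, endothelial cells and cholinergic neurons had 0 called members in both genotype comparisons.

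**Figure D3:**
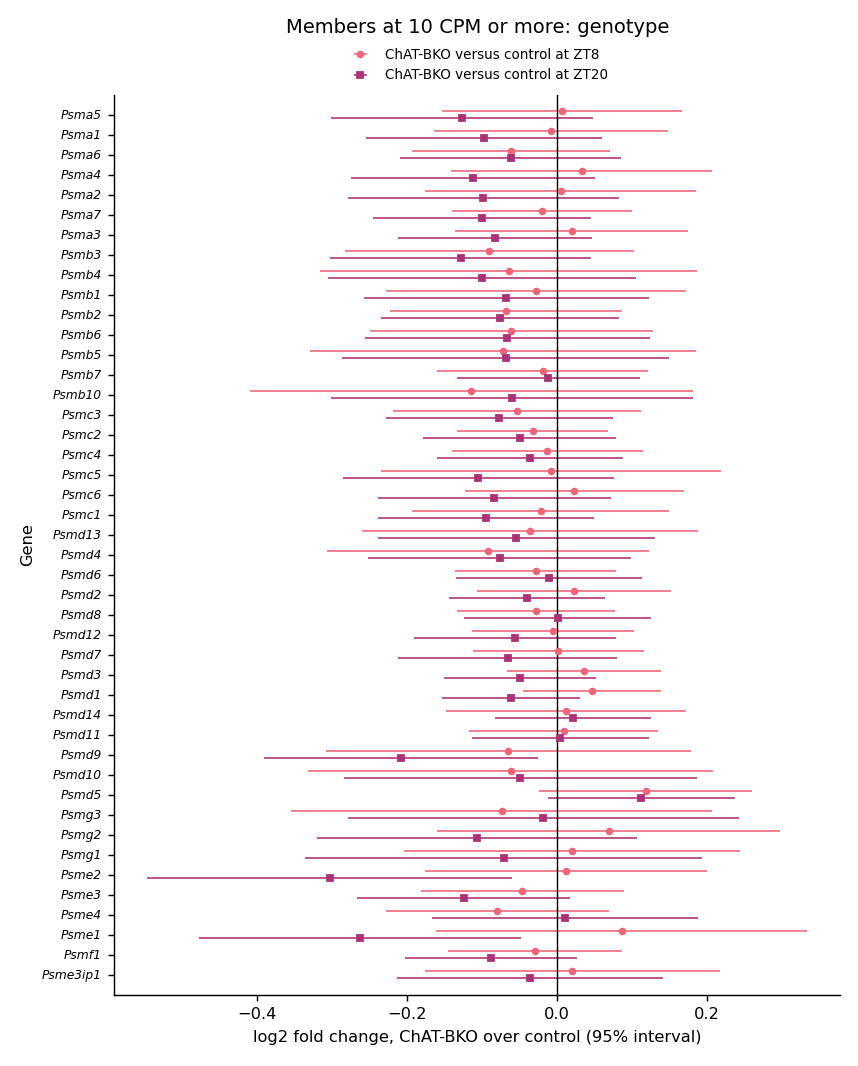
Log2 fold changes of *ChAT-BKO* over control with 95% intervals for the 44 members at 10 CPM or more, at ZT8 (circles) and ZT20 (squares). At ZT20, 39 of 44 points lie left of 0, and the intervals of 41 of the 44 cover 0.

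Between ZT8 and ZT20 in controls, no proteasome gene passed the test. With only these times sampled, a rhythm with like levels at both would not be seen. Of 51 members 0 were called by edgeR (0.115% of all genes) and 0 by DESeq2 (0.584%), and the groups were free of overlap for 0 members (0.957%). The median log2 fold change of ZT20 over ZT8 was -0.01, with 32 of 51 below 0 (49.1% of all genes), and the 31 constitutive genes had 95% intervals within folds of 0.817 to 1.18. An unadjusted p below 0.05 was found for 2 members (8.25% of all genes). *Psmf1*, which encodes the proteasome inhibitor PI31, ran from 69.8 to 79.5 CPM at ZT8 (median 77.0) and 63.2 to 72.6 at ZT20 (median 69.7), a log2 difference of -0.13 ± 0.055 (adjusted p = 0.541). *Psmd5* ran from 37.0 to 44.1 and 42.6 to 48.5 CPM (0.14 ± 0.062, adjusted p = 0.581). Of each gene, all 6 ZT20 libraries lay on the same side of the ZT8 median. *Psmg2*, a chaperone of the alpha ring, followed, from 20.9 to 31.8 CPM at ZT8 and 24.5 to 32.5 at ZT20 (0.15 ± 0.096, adjusted p = 0.735).

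In *ChAT-BKO* neurons 0 of 51 members were called between ZT20 and ZT8 by edgeR, beside 0.285% of all genes, and 4 had an unadjusted p below 0.05, beside 9.42%. *Psmd1*, the large scaffold subunit of the 19S base, ran from 262 to 273 CPM at ZT8 (median 268) and 234 to 256 at ZT20 (median 241). It was the only member whose groups were free of overlap in one of the pairwise comparisons (1 of 51 here, beside 1.19% of all genes). Its log2 difference was -0.14 ± 0.044 (edgeR adjusted p = 0.250), while DESeq2 gave an adjusted p of 0.00366 (1 member called, beside 1.04% of all genes) and a fit with each library's length slope as a covariate 0.0184. Over all alternatives its adjusted p ran from 0.00366 to 0.530. *Psmf1* ran from 67.6 to 77.0 CPM at ZT8 and 60.8 to 70.2 at ZT20 (-0.18 ± 0.055, adjusted p = 0.239, and 0.0132 with the length slope as a covariate, the range over alternatives being 0.0132 to 0.499). *Psme1* ran from 12.1 to 16.9 and 9.20 to 14.3 CPM (-0.28 ± 0.117, adjusted p = 0.442). *Psmd5* ran from 42.4 to 52.2 and 45.5 to 54.6 CPM (0.14 ± 0.067, adjusted p = 0.525).

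*Psmf1* and *Psmd5* thus had time differences of like size in both genotypes, *Psmf1* lower and *Psmd5* higher at ZT20, though neither was called. For the difference between the genotypes' time effects, edgeR gave -0.05 for *Psmf1* (95% interval -0.19 to 0.10) and 0.01 for *Psmd5* (-0.17 to 0.18). *Psmd1* in controls ran from 250 to 270 CPM at ZT8 and 243 to 269 at ZT20 (-0.04 ± 0.045, adjusted p = 0.878), and its own difference between genotypes was -0.10 ± 0.054 (adjusted p = 1.00). Over all members, log2 fold changes of ZT20 over ZT8 in *ChAT-BKO* were below 0 for 41 of 51, with a median of -0.05, where 49.2% of all genes were below 0. The catalytic pairs had adjusted p of 0.707 or more in both time comparisons. Markers of other cell types had 0 called members in both, but skeletal muscle markers had median log2 differences of -1.51 in controls (0 of 5 above 0) and 0.80 in *ChAT-BKO* (5 of 5 above 0), at summed levels of 1.296 to 78.6 CPM in Control ZT8 and 2.92 to 121 CPM in *ChAT-BKO* ZT8. Endothelial markers had medians of 0.40 and 0.29 (4 of 5 above 0 in each), and among them *Cldn5* stood at 0.71 ± 0.188 in controls and 0.75 ± 0.181 in *ChAT-BKO* (SE, edgeR adjusted p = 0.239 and 0.0987). The part of these cells in the proteasome values was not tested.

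**Figure D4:**
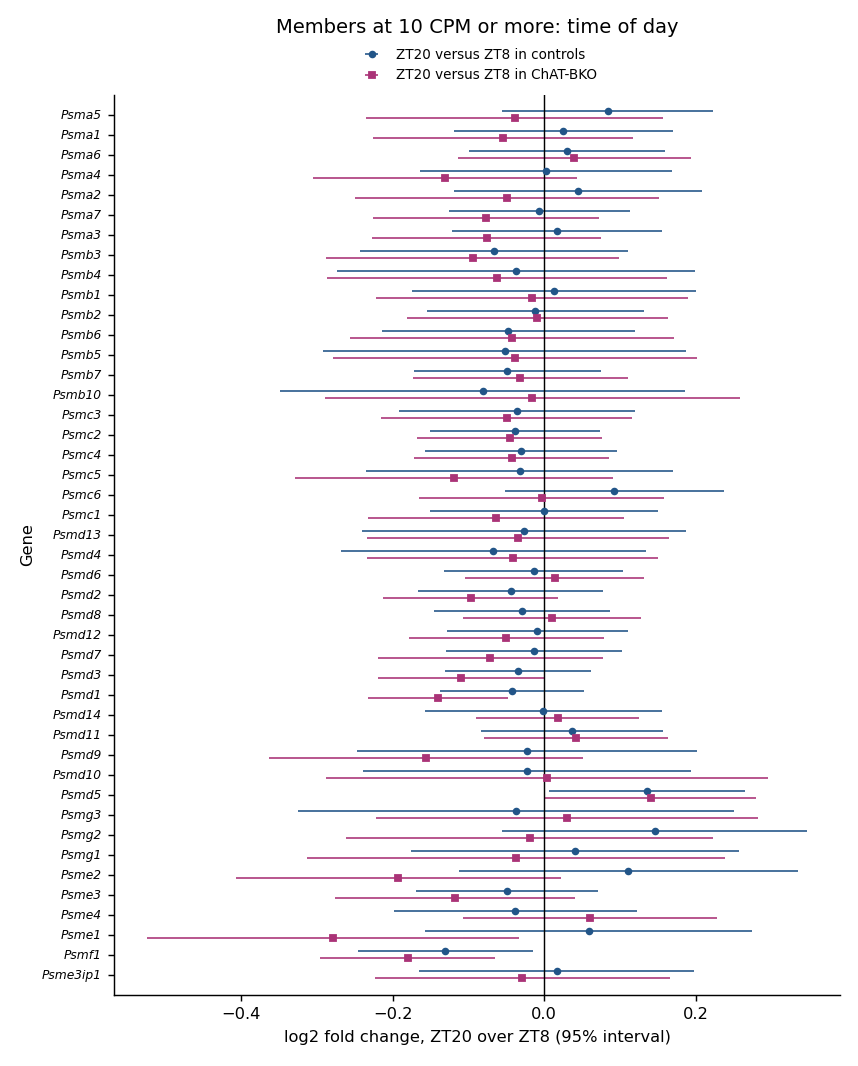
Log2 fold changes of ZT20 over ZT8 with 95% intervals for the 44 members at 10 CPM or more, in controls (circles) and *ChAT-BKO* (squares). *Psmf1* lies left of 0 and *Psmd5* right of 0 in both genotypes, and the intervals of *Psmd1*, *Psmf1* and *Psme1* in *ChAT-BKO* end below 0.

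No member's genotype effect was called different between the 2 times. In a fit of all 24 libraries with genotype, time and their interaction, 0 of 51 members were called by edgeR and 0 by DESeq2 (0% of all genes by either), and 1 had an unadjusted p below 0.05 (3.9% of all genes). The median difference was -0.04, with 35 of 51 members below 0 (49.7% of all genes). That was *Psme1*, at 13.1 ± 2.21 and 14.2 ± 1.98 CPM in control and *ChAT-BKO* at ZT8 and 13.8 ± 1.11 and 11.6 ± 1.91 CPM at ZT20 (SD, n = 6). Its log2 difference of differences was -0.34 ± 0.159 (SE, adjusted p = 1.00). *Psme2* followed at -0.30 ± 0.160 (adjusted p = 1.00). For the 31 constitutive genes all intervals of this difference lay within folds of 0.756 to 1.31.

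The members shared a joint movement from library to library. For each library the deviation of each member from its own mean over the 24 IP libraries was taken on the log2 CPM scale. The median deviation ran from -0.33 in *ChAT-BKO* ZT20 replicate 3 to 0.18 in *ChAT-BKO* ZT20 replicate 4, so the extremes came from the same group. In replicate 3, 5 of 51 members were above their own mean, and in replicate 4, 43 were, while 54.6% and 47.3% of all genes were above theirs. By group, the medians ran from -0.24 to 0.17 in Control ZT8, -0.14 to 0.16 in *ChAT-BKO* ZT8, -0.10 to 0.15 in Control ZT20 and -0.33 to 0.18 in *ChAT-BKO* ZT20.

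This movement followed how strongly each library favoured long genes. The length slope, the rise of log2 CPM per doubling of gene length over all genes with a length, correlated with the members' median deviation with Pearson's r = -0.977 and Spearman's rho = -0.956 (24 libraries). Without the 2 libraries farthest from the median slope, *ChAT-BKO* ZT20 replicate 3 and Control ZT8 replicate 5, these were -0.972 and -0.944, and with group means removed -0.979 and -0.963. Within the 4 groups of 6, r lay between -0.941 and -0.993. Both measures come from the same libraries and members are short, so this is a description and was given no p. The mean slope was 0.884 in Control ZT8, 0.889 in *ChAT-BKO* ZT8, 0.877 in Control ZT20 and 0.904 in *ChAT-BKO* ZT20.

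Over the 24 libraries, 45 of 51 members had a negative r with the length slope, with a median of -0.85, against 48.5% of all genes tested and a median of 0.02. The most negative was *Psmb1*, a structural beta gene, at -0.98. The 6 exceptions, named after their values were seen, were *Psmd11* (0.67), *Psmd14* (0.66), *Psme4* (0.52), *Psmd5* (0.22), *Psmf1* (0.13) and *Psmb11* (0.06). The order by r differed from the order by length, and the part of length in it was not tested. *Psme4* at 6491 bases and *Psmd5* at 4397 bases are the longest members, but *Psmd14*, the deubiquitinase of the 19S lid, has 1541 bases, near the members' median. Of the 11 members longer than the median of the genes tested, 7 had a negative r, among them *Psma2* (2911 bases, -0.95), *Psme3ip1* (2873 bases, -0.93), *Psma3* (2846 bases, -0.88) and *Psmd2* (2961 bases, -0.85). The place of *Psma3* among them depends on the length used, since it has 1852.5 bases over all basic transcripts.

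**Figure D5:**
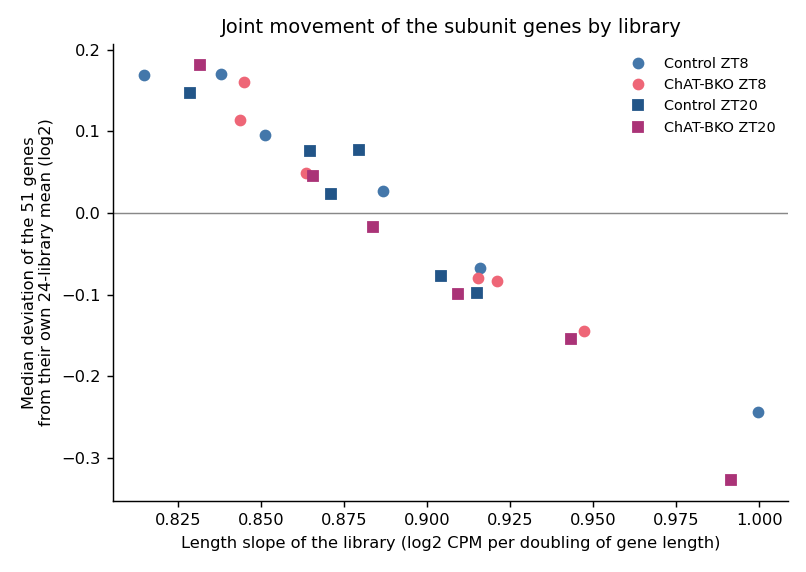
Median deviation of the 51 genes from their own 24-library mean (log2 CPM) against the length slope of the library, for the 24 IP libraries coloured by group. The points fall along a line from 0.18 at a slope of 0.832 to -0.33 at a slope of 0.992, and the 4 groups overlap along it.

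With the length slope as a covariate, most of the members' joint shift was removed, as follows from the correlation just given, so the medians of that fit are a description only. The members' median log2 fold change of *ChAT-BKO* over control at ZT20 was then -0.004, with 0 called (0.837% of all genes) and 22 of 51 above 0 (45%), in place of -0.07 with 7 above 0. For ZT20 over ZT8 in *ChAT-BKO* it was 0.005, with 26 of 51 above 0 (49.6% of all genes), in place of -0.05 with 10 above 0. At ZT8 between genotypes it was -0.005, with 0 called (0.704% of all genes) and 23 of 51 above 0 (52.2%), in place of -0.02. For ZT20 over ZT8 in controls it was -0.02, farther from 0 than the -0.01 without the covariate, with 0 called (1.56% of all genes) and 18 of 51 above 0 (53.2%). In the fit for time in *ChAT-BKO*, 2 of 51 members, *Psmd1* and *Psmf1*, were called lower at ZT20, beside 2.24% of all genes in either direction.

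Of the other components and regulators of the proteasome, listed by role and not by how they moved, 25 of 26 were tested and 0 were called in any of the 5 comparisons. The list holds the ubiquitin receptor *Adrm1*, the deubiquitinases *Uchl5* and *Usp14*, the transcription factor *Nfe2l1* and the ubiquitin-activating enzymes *Uba1* and *Uba6*. Its median log2 fold change was -0.01 for *ChAT-BKO* over control at ZT8 and 0.01 at ZT20, and 0.003 and 0.02 for ZT20 over ZT8 in controls and *ChAT-BKO*. The smallest p values were those of *Uba6* and *Akirin2*, a factor that brings proteasomes into the nucleus. *Uba6* was 0.52 ± 0.200 higher on the log2 scale at ZT20 in controls (SE, adjusted p = 0.480) and 0.68 ± 0.181 in *ChAT-BKO* (adjusted p = 0.149). *Akirin2* was 0.22 ± 0.075 higher in controls (adjusted p = 0.410) and 0.22 ± 0.084 in *ChAT-BKO* (adjusted p = 0.388). *Nfe2l1* differed by -0.01 ± 0.052 at ZT8 and 0.02 ± 0.048 at ZT20 between genotypes (adjusted p = 1 and 0.976).

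Genes of antigen presentation and the interferon response, which are induced together with the immunoproteasome in immune settings, were likewise not called, with 0 of 15 in each of the 5 comparisons. Their medians were 0.02 and -0.03 for *ChAT-BKO* over control at ZT8 and ZT20. *Tap1*, the peptide transporter gene that shares exon bases with *Psmb9*, stood at 0.29 ± 0.151 in the ZT8 comparison and at -0.32 ± 0.182 in that of ZT20 (SE, edgeR adjusted p = 1 and 0.832). Against the input, this list had a median log2 ratio of -0.68, with 5 of 15 above 0.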

How the data were processed

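mRNA from HA-immunoprecipitated ribosomes of 24 spinal cords and 1 pooled input was sequenced as 150-bp paired reads. Per the authors' methods and notes, reads were aligned with STAR 2.7.5 to mm10 and expected counts per gene were estimated with RSEM. The authors deposited the expected counts with no normalization. Of the values, 6.11% were not whole, and all were rounded here. Whether counting used strand is not given in the sources used here.

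Genes with at least 10 counts over the 24 IP libraries (21738) were fitted with edgeR 4.0.16 (TMM, quasi-likelihood F test, two-sided) in R 4.3.3, on the 12 libraries of each pairwise comparison and on all 24 for the interaction. Adjusted p is Benjamini-Hochberg's over every gene tested, and called means an adjusted p under 0.05. The p-values cover the spread between these mice. CPM uses TMM over all 25 libraries, and log2 CPM a prior count of 2. Gene positions and lengths (median of principal transcripts) came from GENCODE on GRCm38, the same assembly as mm10, for 51 of 51 members and 87.1% of genes tested. Totals of 4.04 M to 31.7 M counts set the precision. Alternatives were DESeq2 1.42.0, its size factors, limma 3.58.1 with voom, other filters, a replicate block, a length slope covariate, summing -ps copies and leaving out each library.

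The members and lists were chosen with earlier results of these data known. The genes described were the catalytic and PA28 genes, in each comparison the 3 of smallest p where none was called, and the 3 highest and lowest in level per kb and in the IP ratio. Others are named by class.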

Additional observations from a re-analysis of the deposited data

Results flagged for a closer look

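By Dixon's criterion, 3 values stood apart from the other 5 of their group, among 84 groups of 6 libraries tested (the CPM of 19 genes described singly, the members' median deviation and the immunoproteasome share, in 4 groups each), where chance gives about 4.2. *Psmd5* was at 52.2 CPM in *ChAT-BKO* ZT8 replicate 5, against 42.4 to 44.4 CPM in the others. *Psmb11* was at 0.742 CPM in the same library, the shallowest of all at 4.04 M counts, against 0 to 0.245 CPM, and *Psma8* at 0.172 CPM in *ChAT-BKO* ZT20 replicate 1, against 0 in the others, both on a few counts.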

How the results depend on the processing

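No member was called in any comparison under every alternative, with the exception of ZT20 versus ZT8 in *ChAT-BKO*, where DESeq2 called 1 (*Psmd1*) and the length slope covariate 2 (*Psmd1* and *Psmf1*); why these fits differ from edgeR's was not tested. Leaving out each library in turn gave 0 calls of members throughout, where at most 57 of all 21738 genes were called higher and 14 lower. The members' median log2 fold change at ZT20 between genotypes ran from -0.13 without *ChAT-BKO* ZT20 replicate 4 to -0.03 without replicate 3, and that of ZT20 over ZT8 in *ChAT-BKO* from -0.12 to 0.001 without the same libraries. At ZT8 between genotypes it ran from -0.05 without Control ZT8 replicate 5 to 0.02 without replicate 2, and over time in controls from -0.05 to 0.03 without the same libraries. The median IP over input ratio was 0.896 on library totals without TMM and the immunoproteasome share 3.67% without division by length, both by construction. The ratio as a residual on length and lengths over all basic transcripts (share 2.45%) were chosen after seeing the data. The labels do not say whether replicate numbers pair the mice. Same-numbered libraries correlated from -0.44 to 0.66, and 1 or 2 of 6 correlated best with their own number. With a replicate block 0 members were called, with medians of -0.02 and -0.08 between genotypes at ZT8 and ZT20. Of all 21738 genes, the fit with a block called 47 higher and 22 lower at ZT8 (28 and 12 without it), and 51 higher and 10 lower at ZT20 (41 and 9). For ZT20 versus ZT8 it called 62 higher and 24 lower in controls (21 and 4 without it), and 38 and 9 in *ChAT-BKO* (50 and 12). Of 50 results on single genes, only those of *Psmd1* and *Psmf1* for ZT20 versus ZT8 in *ChAT-BKO* became called, as above. None reversed, and 21 changed sign uncalled under some setting. With filterByExpr 48 members remained. Depth limits *Psmb8*, *Psmb9*, *Psma8* and *Psmb11* most.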
